A study of Mus musculus with 2 samples.

Results

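The ADP-ribosyltransferases of the PARP family and the ubiquitin ligase gene Dtx3l were examined in mouse retina with and without Cre-mediated recombination of 3 DNA methyltransferase genes. The members were the 8 genes Parp1, Parp2, Parp3, Parp9, Parp10, Parp12, Parp14 and Dtx3l, chosen by gene symbol from the 23356 symbols of the transcript table. They had 9 of its 30608 transcript rows, all with status OK. All 8 counted as measured, which meant at least 1 FPKM (fragments scaled to transcript length and library size) in at least 1 library, as did 13280 genes in all. RNA came from retinas of pups at postnatal day 15. The control library carried loxP-flanked alleles on both copies of Dnmt1, Dnmt3a and Dnmt3b, was Rx-Cre negative, and has the strain label C57BL/6. The triple mutant library carried the same alleles, was Rx-Cre positive, and has the strain label C57BL/7. Rx is a transcription factor gene of the early eye field, so its Cre acts in the retinal lineage, from which microglia and vessel cells do not arise. The sources used here do not give the number of animals behind each library. There was 1 library per genotype, so each difference below is one between these 2 libraries, with no replicate check and no test.

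PARP proteins transfer ADP-ribose from NAD to proteins or nucleic acids. Parp1 and its nearest relatives are recruited to DNA breaks, where Parp1 builds long ADP-ribose chains that gather repair factors. Another branch of the family adds single ADP-ribose units or binds them through macrodomains, and several of its genes are switched on by interferon and act against viruses. Dtx3l is a ubiquitin ligase of the Deltex family that forms a complex with Parp9.

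Size is given as a log2 ratio, mutant over control, computed after 1 FPKM was added to both values, which understates the ratio of low genes. A gene passed the size rule where this log2 ratio was 1 or more, or -1 or less. Folds are ratios of FPKM without that addition. Ranges in brackets are 95% intervals for counting error, from fragments recovered from the steps between low FPKM values. An FPKM of 1 rested on about 47.8 fragments per kilobase in control retina and 54.9 in mutant retina. The targeted genes were all lower in the mutant library, Dnmt1 at 21.7 and 11.6 FPKM, Dnmt3a at 87.4 and 56.0, and Dnmt3b, low in both, at 1.03 and 0.827. Of 5 rod markers, 4 had usable rows, and they summed to 9222 FPKM in control retina and 7982 in mutant retina. Cone markers (803 and 351 FPKM), lens markers (136 and 1.31) and pigment epithelium markers (48.8 and 3.28) had lower sums in the mutant library. In bulk RNA, fewer cells of a type and less RNA per cell cannot be told apart. Whether the control and mutant dissections carried over the same amount of lens and pigment epithelium was not tested.

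All 5 interferon-linked members passed the size rule upwards in the mutant library and 0 passed downwards, where 1.84% of the 13280 measured genes were higher and 0.648% were lower. The log2 ratios had a median of 1.62, with a range of 1.27 to 2.40, and the median of all measured genes was 0.00 (quartiles -0.16 and 0.15). Among the 3 DNA repair members, Parp3 was higher by the size rule and Parp1 and Parp2 lay between -0.25 and 0.23. The median of the repair members was 0.23, so the medians differed by 1.39. After the addition of 1 FPKM, Parp3 (log2 ratio 1.15) lay just below the lowest interferon-linked member, Parp10 (1.27). By fold, without that addition, Parp3 (3.19-fold) lay above Parp10 (2.85-fold), so the order of these 2 genes depends on the measure. The members and their grouping were chosen with earlier results of these data known, so these counts are a description.

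**Figure D1:**
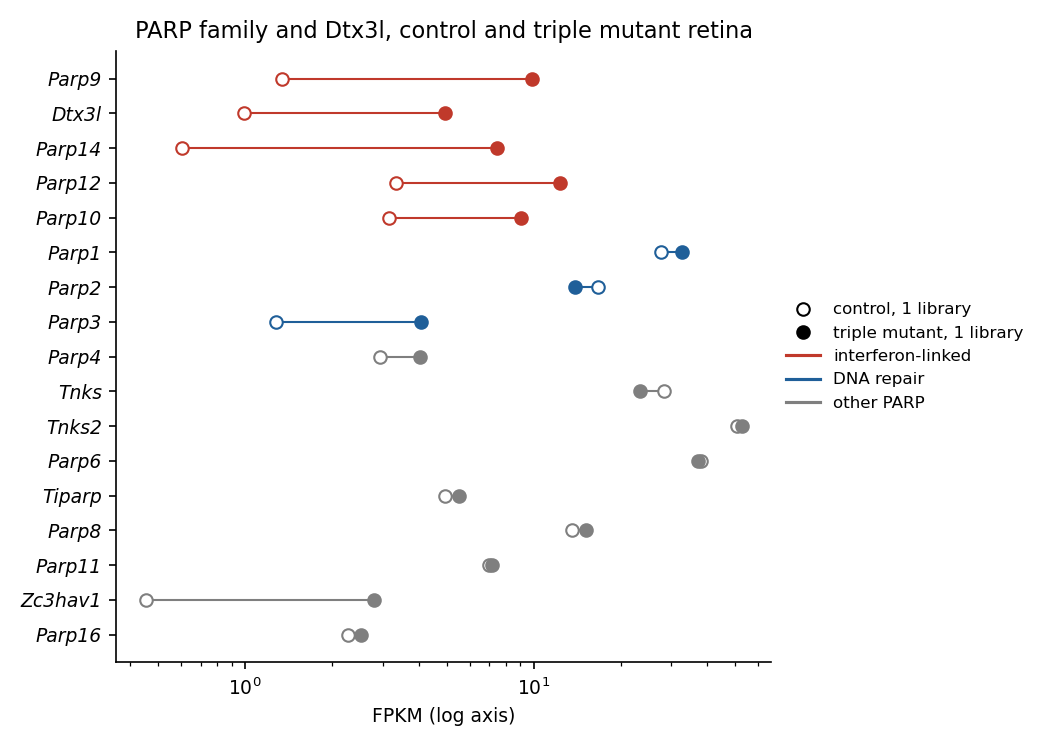
FPKM (log axis) of the 16 PARP genes and Dtx3l in the control library (open circles) and the triple mutant library (filled circles), with 1 library each and a line joining the values of a gene. Parp9, Dtx3l, Parp14, Parp12, Parp10, Parp3 and Zc3hav1 have long lines to the right, and the other genes have circles that lie close together.

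Parp14, a large macrodomain protein that adds single ADP-ribose units and acts in cytokine signalling, had 0.605 FPKM in control retina and 7.46 in mutant retina. This was the largest fold of the members, 12.3-fold (10.7 to 14.2), with a log2 ratio of 2.40, and 53 of the 13280 measured genes had a larger ratio. In the control library only Zc3hav1 was lower among the 16 PARP genes and Dtx3l, and in the mutant Parp14 ranked 10 of those 17. Parp9, a macrodomain protein with little or no transferase activity of its own, had 1.34 FPKM in control retina and 9.87 in mutant retina, 7.37-fold higher (6.41 to 8.51), with a log2 ratio of 2.22. Its partner Dtx3l had 0.989 and 4.92 FPKM, 4.98-fold higher (4.35 to 5.72), with a log2 ratio of 1.57. The fold of Parp9 was larger than that of Dtx3l beyond counting error, and the ratio of Parp9 to Dtx3l FPKM was 1.35 in control retina and 2.01 in mutant retina. Whether these differences exceed the variation between animals was not tested.

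Parp12, a zinc finger protein that adds single ADP-ribose units and restrains several viruses, was the highest of the interferon-linked members in both libraries. It had 3.33 FPKM in control retina and 12.3 in mutant retina, 3.69-fold higher (3.35 to 4.08), with a log2 ratio of 1.62. Parp10, a transferase of single ADP-ribose units first found as a partner of Myc, had 3.16 and 9.01 FPKM, 2.85-fold higher (2.57 to 3.16), with a log2 ratio of 1.27. Parp10 was the only member with 2 transcripts in the table. NM_001163575 had 2.80 FPKM in control retina and 7.83 in mutant retina, and NM_001163576 had 0.366 and 1.18. The first held 88.4% of the gene's FPKM in control retina and 86.9% in mutant retina, so both transcripts were higher and their shares stayed close. By fold the order was Parp14, Parp9, Dtx3l, Parp12 and Parp10, and the counting intervals of neighbours in that order did not overlap. Summed over the 5 genes, FPKM was 9.42 in control retina and 43.6 in mutant retina, a 4.62-fold difference.

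The DNA repair members went separate ways. Parp1, the main sensor of DNA breaks, was the highest of the 8 members in both libraries, with 27.7 FPKM in control retina and 32.7 in mutant retina (1.18-fold, 1.14 to 1.22). Parp2, which shares part of the role of Parp1, had 16.7 and 13.9 FPKM (1.20-fold lower, 1.11 to 1.29). Both differences exceeded counting error and both lay far below the size rule, at log2 ratios of 0.23 and -0.25. Parp3, which acts in the repair of double-strand breaks, had 1.28 FPKM in control retina and 4.07 in mutant retina, 3.19-fold higher (2.69 to 3.79), with a log2 ratio of 1.15. Its counting interval overlapped those of Parp10 and Parp12, and the interval of its log2 ratio, 0.96 to 1.36, included the size rule of 1. In the control library the level of Parp3 lay within the range of the interferon-linked members, and in the mutant library it was the lowest of the 8. Parp3 did not reach the size rule with a pseudocount of 5 FPKM, where its log2 ratio was 0.53.

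The makeup of the 8 members by FPKM therefore differed between the libraries. Interferon-linked members held 17.1% of the summed FPKM in control retina and 46.2% in mutant retina, while the repair members summed to 45.7 and 50.7 FPKM. In the control, Parp1 and Parp2 each had more FPKM than the 5 interferon-linked members together. In the mutant, the interferon-linked sum of 43.6 FPKM exceeded Parp1 alone.

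The authors' deposited table gives a Cuffdiff test for each transcript, made from the same pair of libraries. In the authors' deposited table with symbols, Parp14 was the only member called significant (q = 0.0184), and 69 of its 30608 rows were called. Parp9 had q = 0.0529 and Parp12 q = 0.118 in the authors' deposited table, and Dtx3l had q = 0.267. The 2 transcripts of Parp10 had q = 0.507 and 0.999 in the authors' deposited table, Parp3 had q = 0.832, and Parp1 and Parp2 each had 0.999. A second deposited table, from the same 2 libraries, also called Parp14 alone among the members. Its member FPKM differed from those of the first by about the same factor within each library. Parp1, for example, had 26.9 FPKM in control retina and 33.1 in mutant retina there, so that table is not a separate check.

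Of the 9 other PARP genes, 1 passed the size rule, Zc3hav1, and 8 lay between -0.27 and 0.36. Zc3hav1, also known as PARP13 or ZAP, encodes an antiviral protein that binds CpG-rich viral RNA and has no transferase activity. It had 0.454 FPKM in control retina and 2.78 in mutant retina, 6.14-fold higher (4.78 to 7.99), with a log2 ratio of 1.38. Both of its transcripts were higher, NM_028421 at 0.307 and 1.71 FPKM and NM_028864 at 0.146 and 1.07. The tankyrase genes Tnks (28.4 and 23.4 FPKM) and Tnks2 (50.7 and 52.6), whose products act at telomeres and in Wnt signalling, and Parp6 (38.2 and 37.1), a transferase of single units, were among the 4 highest genes of the family in both libraries, together with Parp1. Tiparp, a target of the aryl hydrocarbon receptor, had 4.93 and 5.52 FPKM, Parp8 had 13.6 and 15.1, and Parp11 had 6.99 and 7.17. Parp4, a component of vault particles, had 2.92 and 4.02 FPKM, and Parp16, a protein of the endoplasmic reticulum, had 2.28 and 2.51. In all, 6 of 16 PARP genes passed upwards and 0 downwards, and the family median was 0.19. Over all measured genes 1.84% passed upwards and 0.648% downwards. All of the 6 but Zc3hav1 were members, which were chosen with earlier results of these data known.

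**Figure D2:**
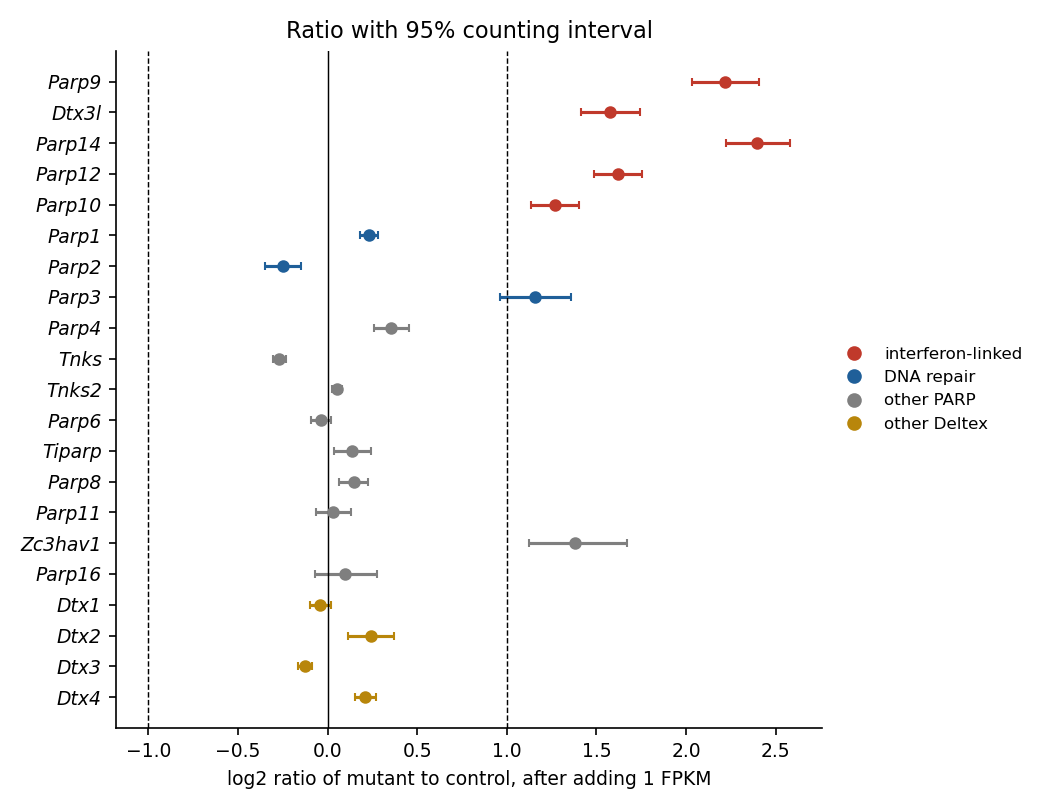
Log2 ratio of mutant to control (x axis, after adding 1 FPKM) for the PARP genes and the Deltex genes, with 95% intervals for counting error and dashed lines at the size rule. The 5 interferon-linked members, Parp3 and Zc3hav1 lie to the right of 1, and the interval of Parp3 crosses it.

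The other Deltex genes, which encode ubiquitin ligases related to Dtx3l, showed 0 of 4 genes past the size rule, and their median was 0.09. Over all measured genes 2.49% passed either way, so that count is near the share of all genes. Dtx3 had 115 FPKM in control retina and 105 in mutant retina. Dtx1 had 22.2 and 21.5 FPKM, Dtx4 had 14.9 and 17.4, and Dtx2 had 5.60 and 6.80. Dtx3l was thus the lowest Deltex gene in both libraries and the only one of the 5 past the size rule.

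Parp14, Dtx3l and Parp9 lie together on chromosome 16 (GENCODE M21, GRCm38). Parp14 runs from 35832874 to 35871544 on the minus strand, Dtx3l from 35926511 to 35939151 on the minus strand, and Parp9 from 35938470 to 35972605 on the plus strand. Parp9 and Dtx3l are arranged head to head, and the GENCODE M21 transcripts matched to their RefSeq rows overlap over 682 bases at their starts. The annotation used for counting is not named, so the overlap of the counted transcripts may differ. They share 367 exon bases, 10.3% of the Parp9 transcript and 6.91% of the Dtx3l transcript. The sources used here do not say whether counting was stranded, and if it was not, fragments of that stretch cannot be assigned to either gene. The 12 nearest genes of the table, 6 on either side, were also compared. Of these, 9 were measured and 0 passed the size rule, which 2.49% of all measured genes passed either way, and their log2 ratios ran from -0.29 to 0.29. Hspbap1, next to Parp14, had 1.42 FPKM in control retina and 1.21 in mutant retina. Kpna1, an importin gene next to Parp9, had 26.1 and 24.9 FPKM. The 3 members at this locus were past the size rule, and they were chosen with earlier results of these data known. A count of 0 among the 9 measured neighbours is near the share of all measured genes.

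**Figure D3:**
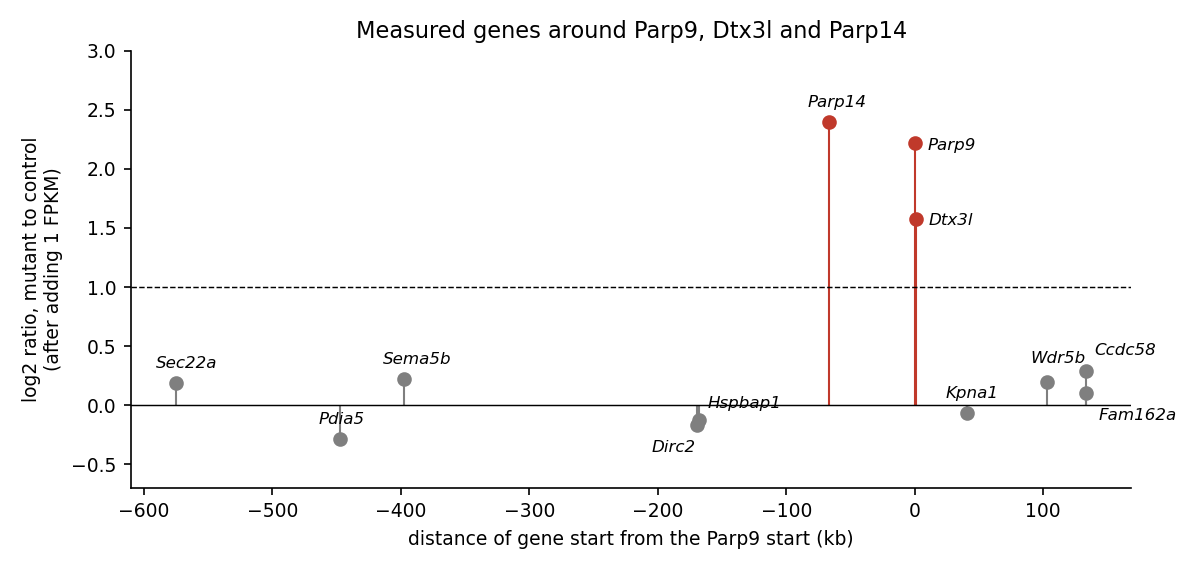
Log2 ratio of mutant to control (y axis, after adding 1 FPKM) against the distance of each gene's start from the Parp9 start in kilobases, for the 3 members on chromosome 16 and the 9 measured neighbours, with a dashed line at the size rule. Parp14, Parp9 and Dtx3l stand between 1.57 and 2.40, and each neighbour lies between -0.29 and 0.29.

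The other members lie apart from this locus. Parp12 is on chromosome 6 (39086410 to 39118349, minus strand), Parp10 on chromosome 15 (76231174 to 76243441, minus strand), Parp1 on chromosome 1 (180568924 to 180601254, plus strand), Parp2 on chromosome 14 (50807841 to 50821301, plus strand) and Parp3 on chromosome 9 (106470322 to 106476949, minus strand). Exons of Parp10 share 205 bases with those of Plec on the same strand, and Plec had 6.99 FPKM in control retina and 5.65 in mutant retina. Exons of Parp3 share 20 bases with Rrp9 on the opposite strand, which had 18.8 and 20.6 FPKM.

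Promoter sequence was read from RefSeq windows of 300 bases on GRCm38.p6, from 250 bases before to 50 after a gene's start, and 5 of the 8 members matched (not Parp9, Parp10 or Parp14). The windows shown pair members past the size rule (Dtx3l, Parp12, Parp3) with one that was not (Parp1). CpG dinucleotides, the sites that the targeted enzymes methylate, are in capitals. The windows are chr16:35938978-35939277 (minus strand) for Dtx3l, chr6:39118300-39118599 (minus strand) for Parp12, chr9:106476900-106477199 (minus strand) for Parp3 and chr1:180568641-180568940 (plus strand) for Parp1.
Dtx3l: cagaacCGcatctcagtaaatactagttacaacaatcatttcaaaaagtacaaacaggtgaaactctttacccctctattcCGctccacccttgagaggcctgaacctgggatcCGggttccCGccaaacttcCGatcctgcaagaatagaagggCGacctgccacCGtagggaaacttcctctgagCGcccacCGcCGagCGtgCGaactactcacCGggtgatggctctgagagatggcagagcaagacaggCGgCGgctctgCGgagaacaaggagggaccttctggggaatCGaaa
Parp12: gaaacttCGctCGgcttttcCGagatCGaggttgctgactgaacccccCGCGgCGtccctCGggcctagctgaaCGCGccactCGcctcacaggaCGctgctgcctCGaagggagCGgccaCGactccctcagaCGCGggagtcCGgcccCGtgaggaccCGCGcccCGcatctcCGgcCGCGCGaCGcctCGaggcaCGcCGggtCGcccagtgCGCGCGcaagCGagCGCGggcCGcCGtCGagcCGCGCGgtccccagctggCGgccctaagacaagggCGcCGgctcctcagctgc
Parp3: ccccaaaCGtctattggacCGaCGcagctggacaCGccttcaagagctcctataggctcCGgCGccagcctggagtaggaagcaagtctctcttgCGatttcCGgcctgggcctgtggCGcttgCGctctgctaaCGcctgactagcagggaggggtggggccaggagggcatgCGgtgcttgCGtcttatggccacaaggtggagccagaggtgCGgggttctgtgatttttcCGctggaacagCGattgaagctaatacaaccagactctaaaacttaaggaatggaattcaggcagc
Parp1: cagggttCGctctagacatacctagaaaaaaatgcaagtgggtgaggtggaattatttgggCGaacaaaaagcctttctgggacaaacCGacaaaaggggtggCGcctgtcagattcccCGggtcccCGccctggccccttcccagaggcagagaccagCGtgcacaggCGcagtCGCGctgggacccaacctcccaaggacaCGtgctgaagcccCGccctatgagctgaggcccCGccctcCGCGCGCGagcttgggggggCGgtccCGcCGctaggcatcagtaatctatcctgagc

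The Dtx3l window holds 17 CpG dinucleotides, the Parp3 window 16, the Parp1 window 20 and the Parp12 window 46, against a median of 7 over all 32851 windows. The fifth matched member, Parp2, has 25. The windows of the members past the size rule thus hold both the fewest and the most CpG of the 5. Their methylation was not measured in these data. Windows were also searched on both strands for the core of the interferon-stimulated response element (GAAA, any 2 bases, GAAA) and for the core of the STAT site (TTCNNNGAA). The first occurs in 3.44% of all windows and the second in 8.30%, and neither occurs in the windows of the 5 matched members. Among 20 matched genes of a list of interferon-stimulated genes, 9 hold the first motif and 6 the second. These counts are per gene, over all windows of a gene, while the 2 shares are per window.

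Of the 13 matched genes among the PARPs and Dtx3l, 2 hold the first motif, and both genes lie below the size rule. They are shown with the motif in capitals, for Parp4 at chr14:56575369-56575668 (plus strand), where 2 matches overlap, and for Parp11 at chr6:127446590-127446889 (plus strand).
Parp4: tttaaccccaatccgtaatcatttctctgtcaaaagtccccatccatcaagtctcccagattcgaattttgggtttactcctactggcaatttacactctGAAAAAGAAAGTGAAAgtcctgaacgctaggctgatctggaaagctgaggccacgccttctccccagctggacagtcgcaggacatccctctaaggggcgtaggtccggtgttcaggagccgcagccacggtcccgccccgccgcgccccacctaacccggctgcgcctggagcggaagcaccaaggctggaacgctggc
Parp11: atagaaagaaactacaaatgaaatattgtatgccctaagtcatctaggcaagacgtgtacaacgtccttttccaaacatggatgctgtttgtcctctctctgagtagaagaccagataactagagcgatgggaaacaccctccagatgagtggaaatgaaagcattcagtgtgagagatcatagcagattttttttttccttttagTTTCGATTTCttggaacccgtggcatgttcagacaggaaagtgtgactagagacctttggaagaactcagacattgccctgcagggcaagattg
In the Parp11 window the motif shares 3 bases with a STAT site core. The log2 ratios of these genes were 0.36 and 0.03. A second Parp11 window in the table holds no match. Of the 7 genes of the family past the size rule, 4 had a window to search, and none of those 4 holds the motif.

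Interferon-stimulated genes outside the family were compared as a reference, from a list chosen with earlier results of these data known. Of 26 listed, 24 were measured, of which 21 passed the size rule upwards and 0 downwards. The median log2 ratio was 1.85, with a range of 0.11 to 4.38. The largest log2 ratios were those of Isg15 (40.0-fold, 28.3 to 58.3), Bst2 (20.6-fold, 16.4 to 26.2), Oasl2 (19.2-fold, 16.8 to 22.0) and Ifit1 (42.9-fold, 31.1 to 60.8). The 3 below the size rule, named after their values were seen, were Adar (27.6 and 29.8 FPKM), Ifit2 (4.07 and 8.02) and Cmpk2 (5.63 and 11.5). The PARP members lay in the middle and lower part of that range. Of the 24 genes, 10 had larger ratios than Parp14 and Parp9, 14 than Parp12, 16 than Dtx3l and Zc3hav1, and 19 than Parp10 and Parp3.

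Genes that carry the interferon signal were split. Of 14 measured, 6 passed the size rule upwards and 0 downwards, and the median was 0.24. Irf9, an interferon regulatory factor gene, had 5.44 FPKM in control retina and 34.5 in mutant retina, Irf7 had 5.64 and 22.5, and Irf1 had 2.66 and 9.91.

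The 2 lists of genes that act with the PARPs on ADP-ribose had median log2 ratios within the quartiles of all measured genes. Of 10 measured genes for ADP-ribose removal, 0 passed the size rule, and the median was 0.06. Over all measured genes 2.49% passed either way, so a count of 0 in a short list is near that share. By size of ratio either way, the first was Adprhl1, with 1.81 FPKM in control retina and 3.32 in mutant retina (1.83-fold, 1.45 to 2.31). Next were the terminal hydrolase gene Oard1 (20.0 and 24.8), Macrod1 (7.77 and 6.51) and Adprh (69.9 and 81.5). Of 7 measured readers and chromatin partners, 0 passed, with a median of 0.05. The Parp1 cofactor gene Hpf1, listed as 2700029M09Rik, had 26.4 and 32.4 FPKM, and the macroH2A gene H2afy had 140 and 150.

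The supply and other uses of NAD were also compared, since PARPs consume it. Of 9 measured genes of NAD synthesis, 0 passed the size rule, beside 2.49% of all measured genes, and the median was -0.0029. Nnt, listed there although it encodes a mitochondrial transhydrogenase and does not make NAD, had 5.81 FPKM in control retina and 3.57 in mutant retina. The nicotinic acid gene Naprt1 had 0.882 and 1.59, Nmnat3 had 1.25 and 2.04, and Nmnat2 had 13.4 and 10.7. Of 9 measured NAD-consuming enzymes other than PARPs, 0 passed and the median was 0.05. Both counts of 0 are near the share of all measured genes. Sarm1, which drives axon degeneration, had 30.8 and 24.0 FPKM, and Cd38, a NAD hydrolase of immune cells, had 0.873 and 1.37.

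No measured gene of the 2 DNA repair lists outside the family reached the log2 ratio of Parp3. Of 38 measured genes of base excision, strand break repair and checkpoint signalling, 0 passed the size rule. Over all measured genes 2.49% passed either way, so a count of 0 is near that share. The log2 ratios of the 38 genes ran from -0.29 to 0.47, with a median of 0.03. Tdg, a glycosylase that also acts in DNA demethylation, had 4.05 FPKM in control retina and 6.01 in mutant retina. The Ku subunit genes Xrcc6 (14.2 and 18.9 FPKM) and Xrcc5 (8.92 and 11.1), Rad50 (3.53 and 4.92) and Mdc1 (10.6 and 12.4) had the largest ratios among the double-strand break genes.

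**Figure D4:**
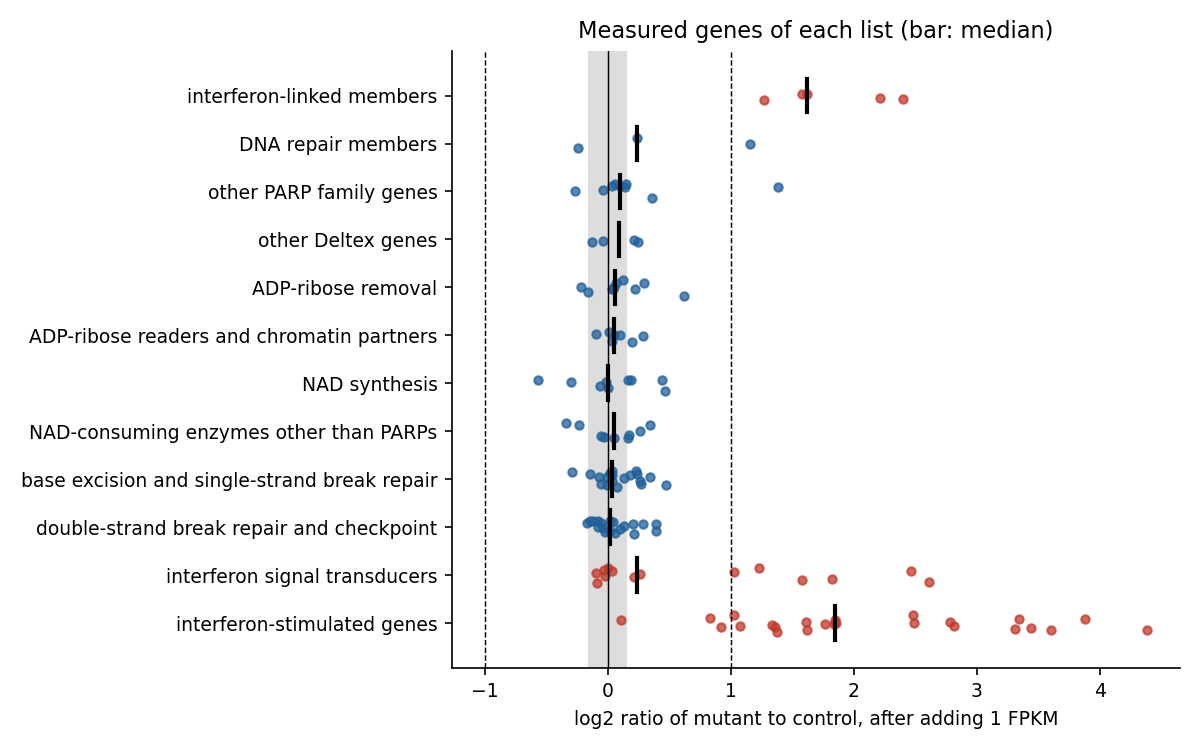
Log2 ratio of mutant to control (x axis, after adding 1 FPKM) for each measured gene of the 12 lists, with a black bar at each list's median, dashed lines at the size rule and a grey band from the lower quartile (-0.16) to the upper quartile (0.15) over all measured genes. The interferon-linked members and the interferon-stimulated genes lie mostly to the right of 1, and the repair, NAD and ADP-ribose lists lie around 0.

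Markers of microglia and macrophages moved in the same direction as the interferon-linked members. Of 15 listed, 13 were measured, of which 7 passed the size rule upwards and 0 downwards, with a median of 1.17. Their summed FPKM was 50.5 in control retina and 155 in mutant retina, a 3.08-fold difference beside 4.62-fold for the interferon-linked members. The largest log2 ratios on the list were those of C1qa (5.84 and 31.2 FPKM), C1qb (5.17 and 25.6) and C1qc (5.61 and 28.8). The C1q genes weigh heavily in that sum. The defining markers were Cx3cr1 (2.03 and 5.81 FPKM), P2ry12 (1.86 and 3.14) and Tmem119 (1.19 and 2.52), and none of the 15 was at 0. Of these defining markers only Cx3cr1 passed the size rule (log2 ratio 1.17), with P2ry12 at 0.54 and Tmem119 at 0.68. Markers of T and NK cells summed to 1.08 and 2.22 FPKM over 8 genes, with 0 measured and Cd3d at 0 in both libraries. Markers of B cells (0.368 and 0.335 FPKM) and of granulocytes and dendritic cells (1.19 and 0.918) were near 0, and those of endothelium and pericytes were at 60.0 and 59.2. The part of microglia in the levels of the PARP members was not tested.

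The genes whose pair of values lay closest to those of 3 members were listed by distance on the log2(FPKM + 1) scale over the 2 libraries, which is too few to show a pattern. Nearest to Parp9 were Gbp7 (distance 0.0781), Xaf1 (0.190) and I830012O16Rik (0.257). Nearest to Parp14 were Cd52 (0.280), Chrna5 (0.289) and Ifi47 (0.345). Nearest to Parp1 were Jmjd8 (0.0164), March5 (0.0252) and Gnl2 (0.0273).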

How the data were processed

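Total RNA from dissected retinas was sequenced in 2 libraries, 1 control and 1 triple mutant, grouped by the genotype label. Reads were processed with TopHat2 2.0.8 and Cuffdiff 2.1.1 on mm10, per the submitters' processing notes; the sources used here do not name the annotation, read layout or strandedness. Each row of the deposited tables is a RefSeq transcript with 1 FPKM value per library. Columns made by the authors hold the log2 fold change, the test statistic (a score), the p-value and the q-value of each row.

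The FPKM of all transcripts with 1 symbol were added up per gene (python 3.11.15, pandas 2.3.3). Genes with at least 1 transcript of status OK and none failed or with excessive data were used (15318). A pseudocount of 1 FPKM was added before log2. No test was run, since each group had 1 library. The size rule was tried on simulated data with counting noise only and large changes planted in genes of higher FPKM. That simulation held no variation between animals and planted no change in genes as low as Parp14, Dtx3l and Parp3.

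Depth was read from single-transcript genes of at least 3000 bases, with a fragment length of 100 bases chosen, among 4 tried, for the largest share of whole multiples: in the control 76.0% of 204 low values, and in the mutant 72.6% of 197, lay within 10% of a whole step. Transcript lengths are those of GENCODE M21. Intervals are exact (Clopper-Pearson) and cover counting error only.

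The members, gene lists and markers were chosen with earlier results of these data known. Named genes were the members, the other PARP and Deltex genes, up to 4 genes per other list (largest absolute ratios), the 3 nearest genes to each of 3 members, locus neighbours and the targeted genes. Proteins were not compared. Alternatives were the pseudocount, the filter, the highest transcript in place of the sum, the second table (33362 rows, matched by transcript identifier) and centring. A gene that the naming rule selects is not reported here.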

Additional observations from a re-analysis of the deposited data

How the results depend on the processing

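The ratios, medians and counts of the members and the counts of the other lists were recomputed under 7 alternatives; the locus neighbours, markers, nearest genes, summed shares and promoter windows were not. With a pseudocount of 0.1 FPKM the median log2 ratio of the interferon-linked members was 2.21 and the difference of medians 1.97. With 5 FPKM these were 1.05 and 0.85, 3 of 5 interferon-linked members were higher (Dtx3l at 0.73 and Parp10 at 0.78 fell short), and 0 repair members were past the size rule. Among genes of at least 5 FPKM, which leaves out Dtx3l and Parp3, the medians were 1.92 and -0.0084, the difference was 1.93, and 0 repair members were past the rule. In the second deposited table, whose member FPKM are those of the first rescaled within each library, the repair median was 0.29. No member changed sign under any alternative in which it was measured, but most alternatives could not change a sign. A pseudocount or a filter on level keeps the sign of a ratio, and centring moved the ratios by almost nothing. The highest transcript differs from the sum for Parp10 alone. At 0.1 FPKM, Parp3 lay above Parp10, at log2 ratios of 1.60 and 1.48. The count of all higher genes was 390 at 0.1 FPKM and 92 at 5, and of lower genes 180 and 33. Zc3hav1 missed the size rule at 5 FPKM and was left out at the higher minimum, and 10 of the 24 interferon-stimulated genes passed at 5 FPKM. Leaving out a library was not possible with 1 per group. No paired analysis was possible because each group has 1 library. The member value with the fewest fragments, Parp3 in the control, rested on about 175.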
